A study of Mus musculus with 21 samples.

Results

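The growth hormone and insulin-like growth factor (IGF) axis was followed here through 9 genes: Igf1, Igf2, Igfbp1, Igfbp2, Igfbp4, Igfals, Ghr, Socs2 and Stat5b. They were chosen by their function and not by a threshold on measured values, and all 9 were found among the 21887 protein-coding genes of the RefSeq annotation of mm10. For each gene, every peak that touched the gene body or the 25 kb on either side of it was listed by position. The data are chromatin immunoprecipitation with sequencing (ChIP-seq) of perfused hepatocytes from livers of mice at postnatal day 90, on a mixed C57/B6 and 129 background. WT mice carried floxed Arid1a alleles without Cre, and KO mice carried the same floxed alleles with Cre driven by the albumin promoter, which is active in hepatocytes, so the controls share the floxed alleles. A separate line with V5-tagged Arid1a was used to map ARID1A itself.

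Antibodies were directed against C/EBPα (2 WT and 2 KO libraries), the histone mark H3K4me2 (3 WT and 3 KO libraries) and the V5 tag (1 library). Of the 21 samples, 11 have a peak list, and the 10 input samples were not used here. Nothing in the labels says that replicates came from separate animals, so p-values measure the spread between these libraries only, which may be technical. A peak that is missing from a list was not called or not kept there, and a site bound in fewer cells cannot be told apart from a site bound more weakly.

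In the liver, growth hormone binds its receptor GHR, the associated kinase JAK2 is activated, and STAT5B moves to the nucleus and switches on Igf1, Igfals and Socs2. IGF1 and IGF2 are circulating growth factors, IGF binding proteins carry them and limit their access to receptors, and IGFALS stabilises a large complex in blood. SOCS2 is a feedback inhibitor that lowers GHR signalling. Mature hepatocytes rely on the transcription factor C/EBPα, ARID1A belongs to SWI/SNF, a complex that remodels nucleosomes, and H3K4me2 marks promoters and enhancers.

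The C/EBPα lists held 16178 to 23646 peaks, the ARID1A list 5726 and the H3K4me2 lists 24908 to 175797, the last number belonging to KO replicate 3, whose peaks were also the narrowest (median 429 bp against 634 to 918 bp in the other 5). The sources used here do not give read depth. The labelled cell type was checked against markers, and 5 of 5 hepatocyte genes had H3K4me2 at a gene end in all 6 lists. The same held for 0 of 4 endothelial, 0 of 4 Kupffer cell, 0 of 3 lymphocyte, 1 of 4 stellate cell and 1 of 3 cholangiocyte markers. All 3 lymphocyte and 2 of 4 Kupffer cell markers had the mark in no list. Every endothelial, stellate cell and cholangiocyte marker had it in at least 1 list. Kdr, Lrat, Reln, Epcam and Sox9 had it in all 3 WT lists, so it was not limited to hepatocyte genes. The share over all genes is not given here. The removal of Arid1a cannot be checked in peak lists, so genotypes are as labelled.

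Promoter sequences were available for 8 of the 9 genes (16 listed starts, RefSeq, GRCm38.p6, the assembly named mm10), and Socs2 had no entry. Each entry runs from 250 bp before to 50 bp after a start. A C/EBPα peak reached into 3 of the 16 entries, and these are printed with the bases inside the C/EBPα region in capitals. They belong to an inner start of Stat5b on the minus strand at chr11:100822521-100822820, an inner start of Ghr on the minus strand at chr15:3581793-3582092, and an inner start of Igfals on the plus strand at chr17:24878497-24878796.
Stat5b inner start: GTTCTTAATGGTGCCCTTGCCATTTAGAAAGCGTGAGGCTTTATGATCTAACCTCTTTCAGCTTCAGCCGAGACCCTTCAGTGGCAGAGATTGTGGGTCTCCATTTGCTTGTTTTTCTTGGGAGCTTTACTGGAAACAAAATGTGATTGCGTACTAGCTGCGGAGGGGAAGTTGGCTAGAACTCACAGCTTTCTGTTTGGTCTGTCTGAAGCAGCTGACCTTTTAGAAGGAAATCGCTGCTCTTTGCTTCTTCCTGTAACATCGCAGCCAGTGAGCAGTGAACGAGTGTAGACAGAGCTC
Ghr inner start: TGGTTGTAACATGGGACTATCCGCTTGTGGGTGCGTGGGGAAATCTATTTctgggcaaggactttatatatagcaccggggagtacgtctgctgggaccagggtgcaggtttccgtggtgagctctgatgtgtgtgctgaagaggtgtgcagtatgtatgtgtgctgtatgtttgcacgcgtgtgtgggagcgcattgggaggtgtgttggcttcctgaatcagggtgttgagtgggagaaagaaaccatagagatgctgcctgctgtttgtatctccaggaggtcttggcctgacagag
Igfals inner start: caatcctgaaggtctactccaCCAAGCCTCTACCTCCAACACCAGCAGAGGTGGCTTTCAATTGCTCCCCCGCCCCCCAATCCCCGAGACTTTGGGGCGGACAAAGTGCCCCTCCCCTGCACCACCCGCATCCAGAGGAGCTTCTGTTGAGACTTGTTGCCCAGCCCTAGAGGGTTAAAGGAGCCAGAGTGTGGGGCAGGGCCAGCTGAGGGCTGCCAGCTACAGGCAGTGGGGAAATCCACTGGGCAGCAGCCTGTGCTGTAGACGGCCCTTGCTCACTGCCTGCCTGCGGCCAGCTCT

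The Stat5b entry lay wholly inside a C/EBPα region present in all 4 lists, while 50 bases of the Ghr entry and 279 bases of the Igfals entry lay in regions present only in WT replicate 2 and KO replicate 2. None of the 16 entries held the C/EBP motif TTGCNNAA on either strand (reverse complement TTNNGCAA), which 10.8% of the 32851 entries of that length in the genome hold. The palindromic STAT motif TTCNNNGAA was in 2 of the 16, both at Igfals, against 8.30% of all entries. The later of those 2 along the gene, on the plus strand at chr17:24877981-24878280, is printed with the match, which begins 58 bp before the start, in capitals.
Igfals middle start: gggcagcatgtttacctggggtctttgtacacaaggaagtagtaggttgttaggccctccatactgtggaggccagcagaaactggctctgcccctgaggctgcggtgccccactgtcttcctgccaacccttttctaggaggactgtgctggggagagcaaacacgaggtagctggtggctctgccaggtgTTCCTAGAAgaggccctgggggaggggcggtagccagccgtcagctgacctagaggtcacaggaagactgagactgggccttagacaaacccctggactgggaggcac

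H3K4me2 lay over all 12 entries of Igfbp1, Igfbp2, Igfbp4, Igf1, Igfals, Ghr and Stat5b in all 6 lists. The 4 Igf2 entries differed: 3 were unmarked in every list, and the fourth was marked in KO replicate 2 alone. No ARID1A peak reached into any of the 16 entries. C/EBPα and ARID1A peaks of these genes lay mostly away from listed starts, and 40 of the 64 C/EBPα regions were inside a gene body (62.5%). The same shares over all entries and all regions of the genome are not given here, so these counts do not set the 9 genes apart.

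**Figure D1:**
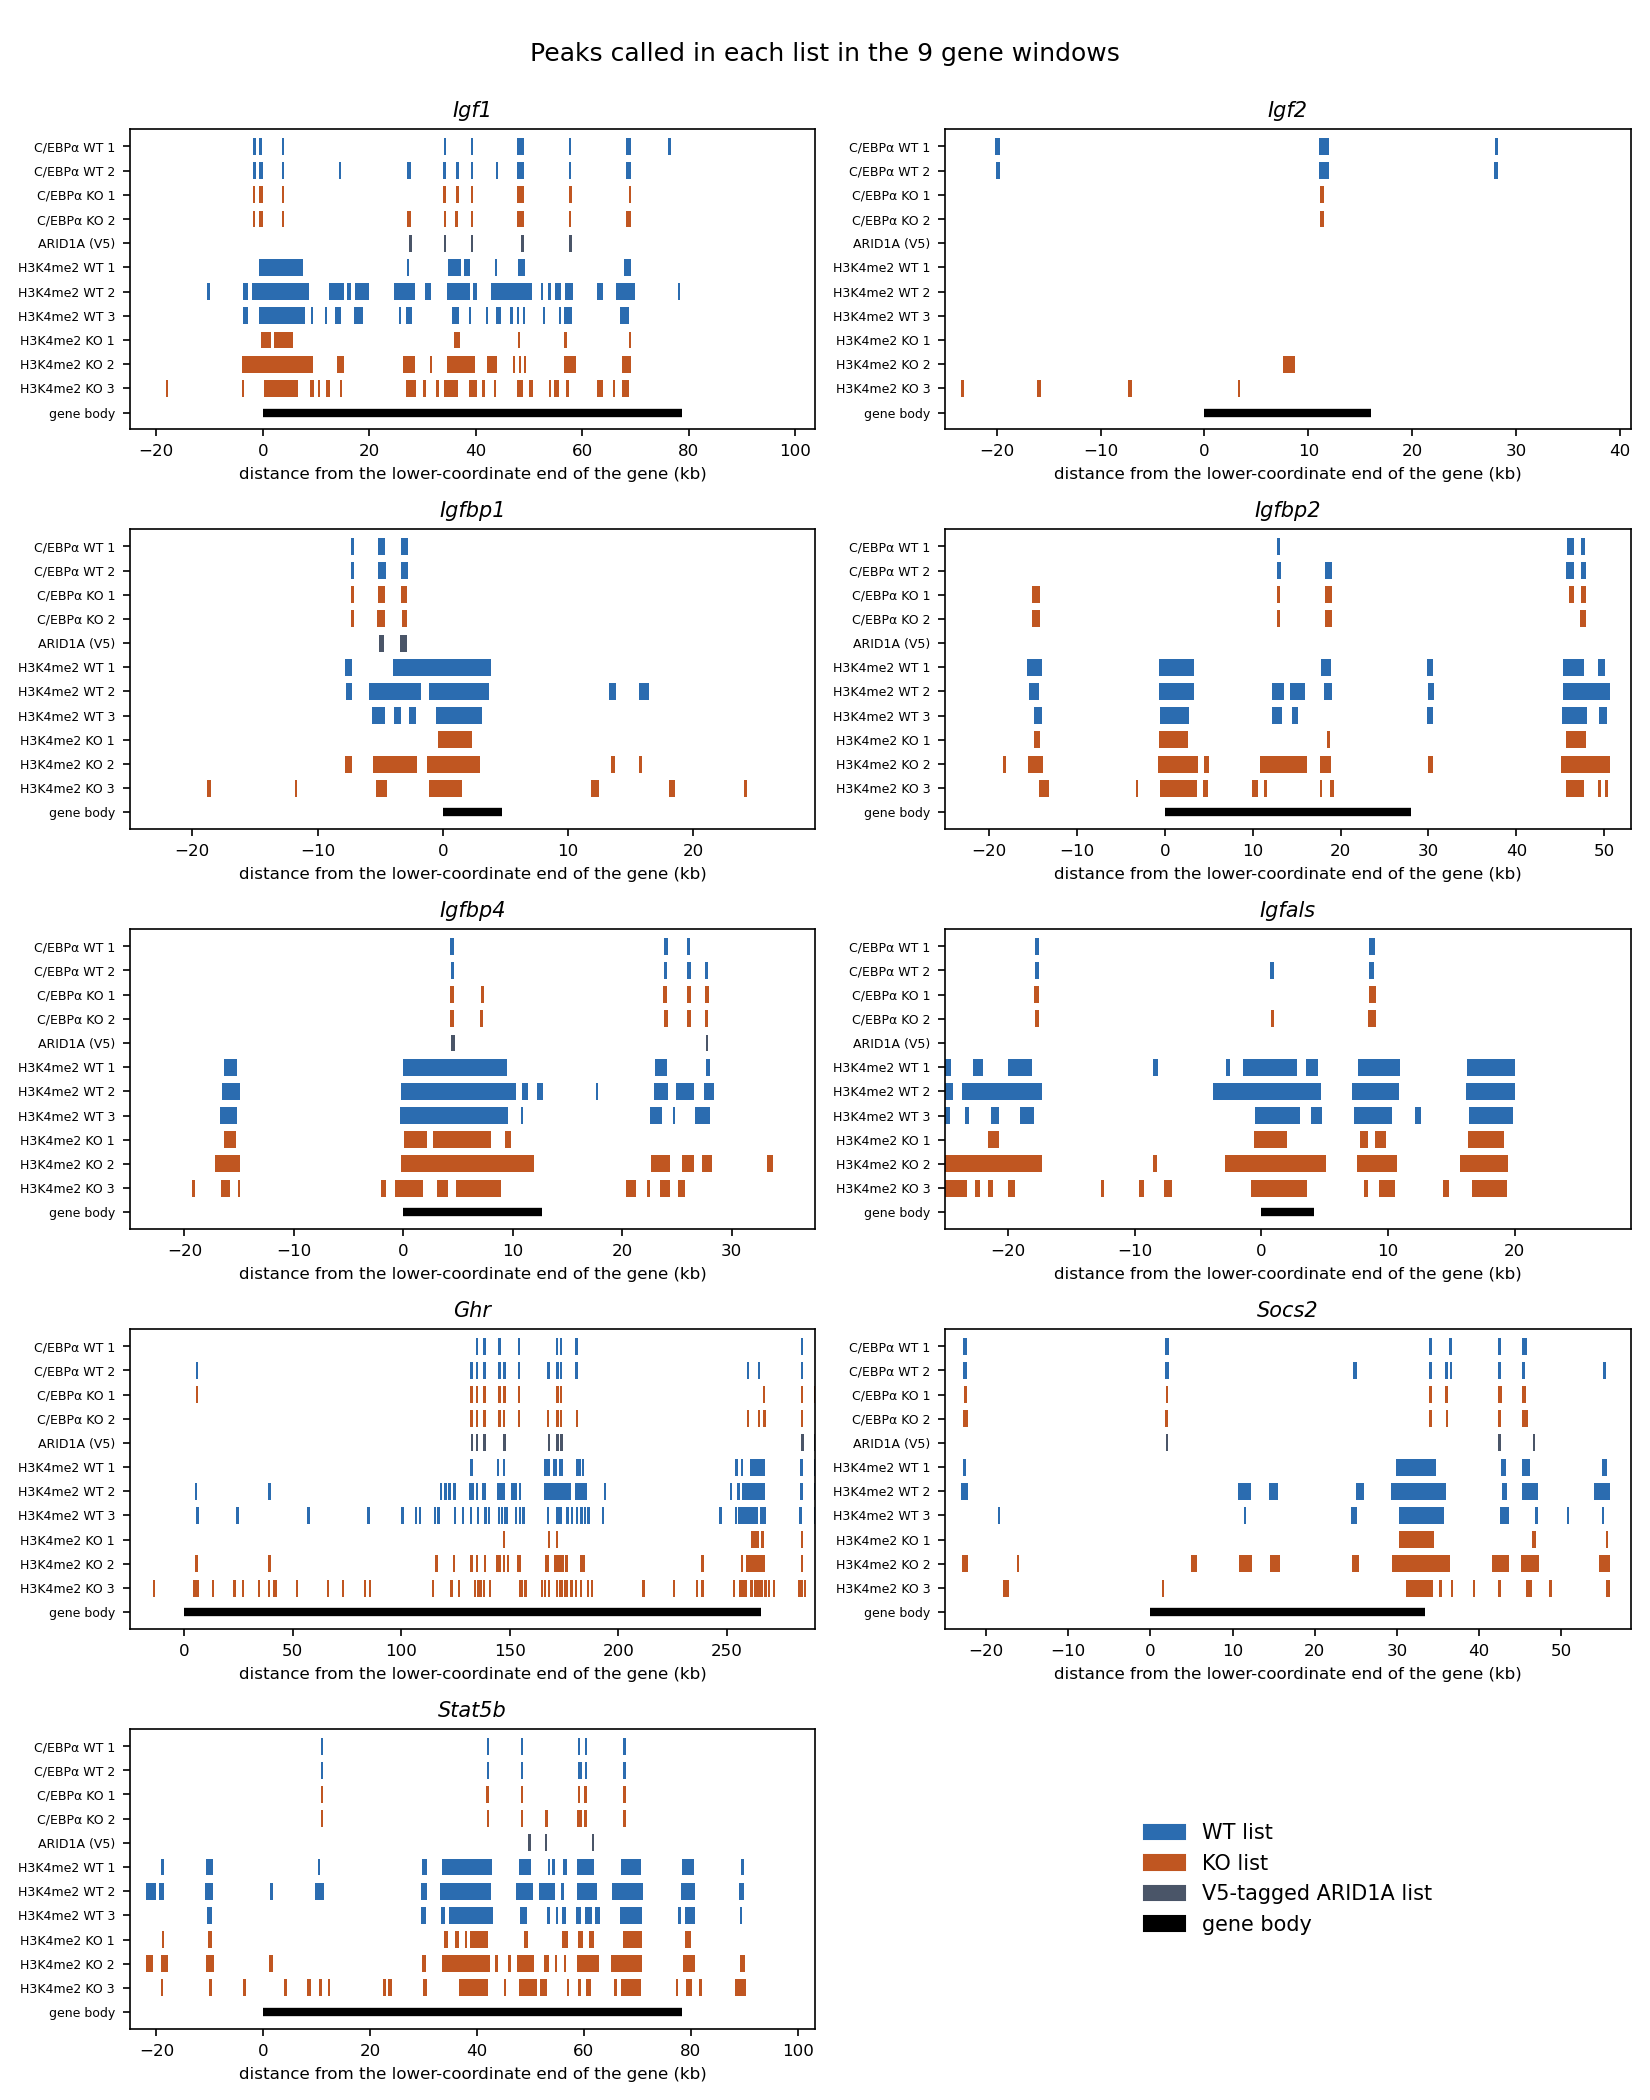
Peaks in each of the 11 lists around the 9 genes. The x axis is the distance in kb from the lower-coordinate end of the gene, each row is 1 list, the black bar is the gene body, and narrow peaks are widened so that they can be seen. Igf2 has 3 C/EBPα peaks in each WT list and 1 in each KO list, with almost no H3K4me2, while Igf1 and Ghr hold rows of C/EBPα and ARID1A peaks inside the gene.

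The first comparison asks where C/EBPα sat near these genes with and without ARID1A. Peaks of the 4 C/EBPα lists that shared at least 1 bp were merged into regions, giving 64 regions in the 9 windows and 27244 in the genome. A region was called kept when all 4 lists had a peak, lost when both WT lists and no KO list had one, gained for the reverse, and mixed otherwise. The 9 windows held 38 kept, 3 lost, 3 gained and 20 mixed regions. Kept regions were 59.4% of the total (95% exact Clopper-Pearson interval 46.4 to 71.5, counting error only), beside 42.8% over the genome.

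The lost regions were 3 of 43 present in both WT lists (6.98%, interval 1.46 to 19.1), beside 19.3% of 16529 such regions in the genome. The gained regions were 3 of 47 present in both KO lists (6.38%, interval 1.34 to 17.5), beside 5.27% of 14222. At least 1 lost region was found in 2 of the 9 windows, Igf2 and Socs2, beside 27.1% of the windows of all protein-coding genes that had a region to lose. At least 1 gained region was found in 3 of the 9, Igfbp2, Igfbp4 and Ghr, beside 13.4%. The upper bound for the lost share lay just under the genome value, and the interval for the gained share held it, but regions of 1 window are not independent. Leaving out WT replicate 1 raised the lost count to 7, and leaving out any other C/EBPα library gave 4. Leaving out WT replicate 2 raised the gained count to 9, and leaving out any other gave 3 or 4. Each omission relaxes the rules by 1 list, so both counts depended on which library was left out.

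**Figure D2:**
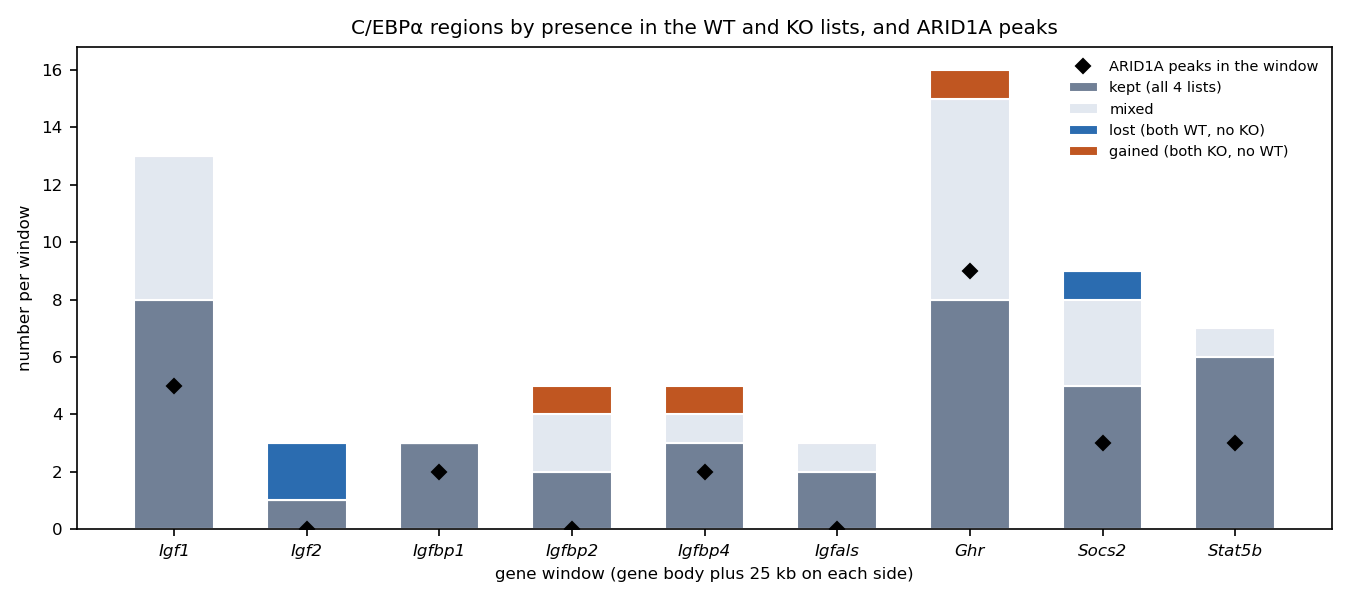
Number of C/EBPα regions in each window by class (stacked bars) and number of ARID1A peaks (diamonds). Igf2 is the window with 2 lost regions against 1 kept, and Igfbp1 has 3 regions, all kept. Ghr has the most regions, 16, and the most ARID1A peaks, 9.

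Peaks were also counted per window, which needs no merging. The 9 windows together held 44 and 59 C/EBPα peaks in WT replicates 1 and 2 and 49 and 54 in KO replicates 1 and 2, which is 2.48, 2.50, 3.03 and 3.04 per 1000 peaks of each list. Igf2 was the 1 member with fewer peaks in both KO lists than in either WT list, beside 14.9% of the 12824 windows with a C/EBPα peak. Igfbp4 was the 1 member with more in both KO lists, beside 6.32%. At Igf2 the difference was -2 peaks with 25 kb flanks and 0 with 10 kb flanks or in the gene body alone, so it lay in the outer flanks. At Igfbp4 it was 1.5 peaks, and 0.5 when only peaks of at least the median width were counted, where the exact permutation p was 1. In an exact two-sided permutation test over libraries, 2 against 2 cannot give a p below 0.333, and both genes had that p. After Benjamini-Hochberg adjustment over all windows every member had an adjusted p of 1, and 0 windows of the genome passed 0.05, adjusted or unadjusted. The median difference (KO minus WT) was 0 over the members and 0 over all windows.

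**Figure D3:**
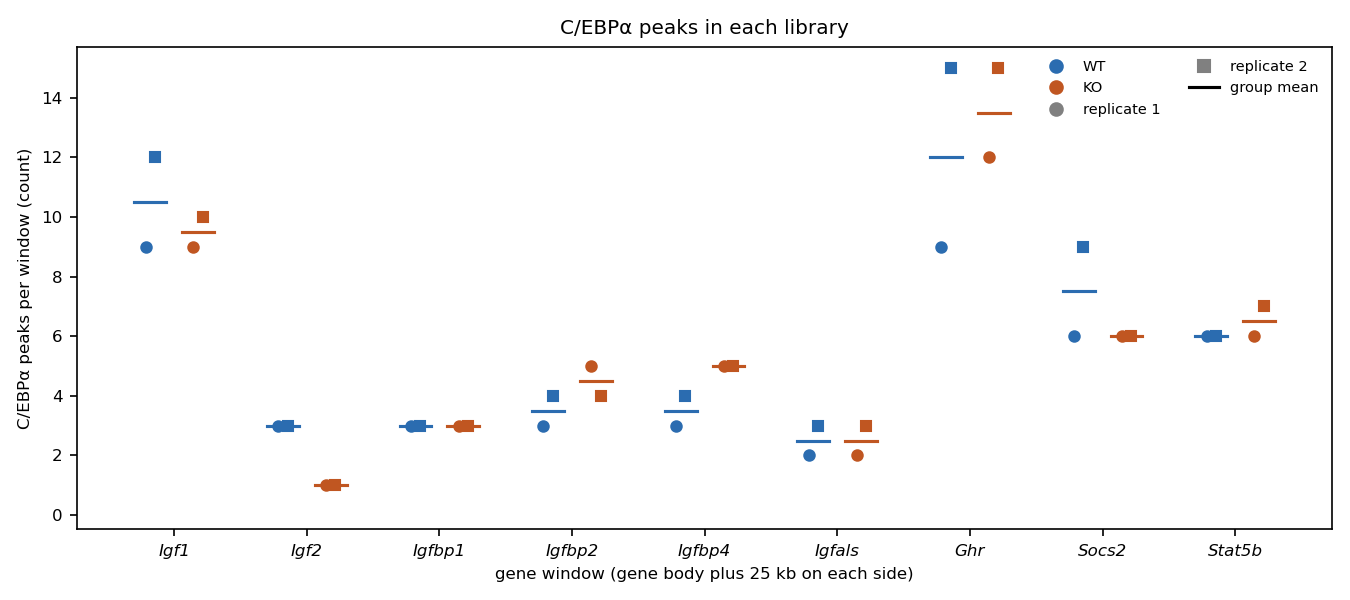
C/EBPα peaks per window (y axis, count) in each library, WT in blue and KO in orange, with the marker shape giving the replicate and the bar the group mean. The groups stand apart at Igf2 (3 and 3 against 1 and 1) and Igfbp4 (3 and 4 against 5 and 5) and overlap or coincide at the other 7 genes.

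The hormone's receptor comes first in the pathway. Ghr (chr15:3317755-3583352, minus strand) has the longest window of the 9, 316 kb, shared with Ccdc152. It held 9 and 15 C/EBPα peaks in the WT lists and 12 and 15 in the KO lists, so the groups overlapped. Of its 16 regions 8 were kept, 7 mixed and 1 gained, and 13 were inside the gene. ARID1A had 9 peaks in the window, more than at any other member, and 7 of these fell within 41.6 kb inside the gene, between 92.1 and 133 kb downstream of the first listed start. The other 2 lay 18.5 and 24.5 kb upstream of it.

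All 9 ARID1A peaks of Ghr overlapped a C/EBPα region, 6 of them a kept one. The kept regions with ARID1A were chr15:3452108-3452534, chr15:3455517-3455965, chr15:3489081-3489524 and chr15:3490825-3491396 inside the gene, and chr15:3601705-3602276 and chr15:3607986-3608561 upstream of it. The last was the widest kept region of the window, with C/EBPα peaks of 434 and 440 bp in WT and 576 and 479 bp in KO. The gained region, chr15:3584381-3584757, lay 1.03 kb upstream of the first start. Its KO peaks were 377 and 303 bp wide, and the nearest C/EBPα peak was 2.04 kb away in WT replicate 2 and 17.0 kb away in WT replicate 1. It overlapped H3K4me2 in 3 of 3 WT and 2 of 3 KO lists, so the mark was there in WT without a called C/EBPα peak.

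Stat5b (chr11:100780731-100859004, minus strand) encodes the factor that carries the growth hormone signal to the nucleus. Its window of 128 kb also touches Kcnh4, Hcrt, Ghdc and Stat5a. C/EBPα had 6 and 6 peaks in the WT lists and 6 and 7 in the KO lists. All 7 regions were inside the gene, 6 kept and 1 mixed, and 1 of the kept ones covered the inner start whose sequence is printed above. That region, chr11:100822487-100822839, was narrow and even, with peaks of 335 and 322 bp in WT and 346 and 344 bp in KO.

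The widest kept region of Stat5b, chr11:100839334-100840377, split by replicate number and not by genotype. Its peaks were 346 and 450 bp wide in WT and KO replicate 1 and 843 and 955 bp wide in WT and KO replicate 2. ARID1A had 3 peaks in the window, and none was on a kept region. The peaks at chr11:100830344-100830605 and chr11:100842234-100842426 overlapped no C/EBPα region, and the third, chr11:100833475-100833863, overlapped a region called in KO replicate 2 alone. Stat5b was the 1 member with kept regions and ARID1A peaks that never met.

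Socs2 (chr10:95383903-95417321), the feedback inhibitor, shares its window of 83.4 kb with no other protein-coding gene. C/EBPα had 6 and 9 peaks in the WT lists and 6 and 6 in the KO lists. Its 9 regions were 5 kept, 1 lost and 3 mixed, and 2 were inside the gene. The lost region, chr10:95420290-95420627, lay 2.97 kb beyond the upper end of the gene, with WT peaks of 338 and 312 bp. KO peaks of 315 and 322 bp stood 189 and 158 bp away from it, in a neighbouring region that WT replicate 2 also had. C/EBPα peaks were thus called right beside the lost region in both KO lists.

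Of the 3 ARID1A peaks near Socs2, 2 were on kept C/EBPα regions. The region chr10:95385639-95386146, 1.74 kb inside the lower end of the gene, had no H3K4me2 in any of the 6 lists. The region chr10:95426174-95426738, 8.85 kb beyond the upper end, had the mark in 3 WT and 2 KO lists. The third ARID1A peak, chr10:95430402-95430663, overlapped no C/EBPα region. The widest kept region, chr10:95429137-95429861, had peaks of 537 and 379 bp in WT and 412 and 717 bp in KO, so its groups overlapped.

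Igf1 (chr10:87858265-87937047, plus strand), which encodes the main circulating growth factor made by the liver on growth hormone stimulation, is alone in its window of 129 kb. C/EBPα had 9 and 12 peaks in the WT lists and 9 and 10 in the KO lists. Of 13 regions 8 were kept, 5 mixed and none lost or gained, and 12 were inside the gene. A kept region, chr10:87857497-87858379, lay across the annotated upstream end of the gene, 2.73 kb upstream of the listed start. Its peaks were 669 and 781 bp wide in WT and 632 and 719 bp in KO. In width percentiles these were 93.4 and 96.1 in WT and 85.2 and 92.1 in KO. The number of kept regions put Igf1 and Ghr at the 99.7th percentile of all protein-coding windows, where window length put them at the 85.4th and 96.9th. The counts are not corrected for length.

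ARID1A had 5 peaks at Igf1, all inside the gene and within 30.4 kb, between 24.7 and 54.7 kb downstream of the listed start, and 4 were on kept regions. The widest of these regions, chr10:87905937-87907326, had C/EBPα peaks of 1199 and 1170 bp in WT and 1376 and 1339 bp in KO. Each ranked between the 99.6th and 99.8th percentile of width in its list, and H3K4me2 lay there in all 6 lists. The other 3 were chr10:87892143-87892767, chr10:87897284-87897785 and chr10:87915694-87916314. The first 2 of those had C/EBPα in every list and ARID1A. They overlapped H3K4me2 in no WT list and in 1 and 2 KO lists. The mark was close by in WT, though. Peaks of WT replicates 1 and 2 began shortly beyond the first region, and that of WT replicate 3 farther away. Peaks of all 3 WT lists ended just before the second. These calls therefore turned on where peak edges fell.

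Igf2 (chr7:142650768-142666816, minus strand) encodes the second IGF, a fetal growth factor that is largely silent in adult mouse liver. Its window of 66.0 kb also holds Ins2. C/EBPα had 3 and 3 peaks in the WT lists and 1 and 1 in the KO lists, so the groups did not overlap. The lost regions were chr7:142630629-142631052, 19.7 kb beyond the downstream end of the gene, and chr7:142678695-142679080, 11.9 kb upstream of the first listed start. The WT peaks of the first were 410 and 415 bp wide and those of the second 298 and 386 bp. The nearest KO peaks were 30.8 kb away from the first and 16.4 kb from the second.

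The kept region of Igf2, chr7:142661763-142662807, lay inside the gene, 4.01 kb downstream of the first start and 492 bp from an inner one. Its peaks were 1006 and 1024 bp wide in WT and 371 and 376 bp in KO. In each list's own ranking of widths that was the 99.3rd and 99.1st percentile in WT and the 34.2nd and 43.9th in KO. None of the 3 regions overlapped H3K4me2 in any of the 6 lists, and the window held no ARID1A peak. All 3 C/EBPα sites near Igf2 were thus absent or narrower in both KO lists, at a locus with no H3K4me2 peak in any WT list.

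Igfals (chr17:24877844-24882011, plus strand) encodes the acid-labile subunit of the circulating IGF complex. Its window of 54.2 kb holds 7 other protein-coding genes. C/EBPα had 2 and 3 peaks in the WT lists and 2 and 3 in the KO lists, replicate by replicate the same. Both kept regions were in the flanks. The widest, chr17:24886270-24886934, had peaks of 427 and 383 bp in WT and 576 and 665 bp in KO, and overlapped H3K4me2 in all 6 lists. There was no ARID1A peak in the window.

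Igfbp1 (chr11:7197787-7202546, plus strand) encodes an insulin-responsive binding protein made by the liver. Its window of 54.8 kb reaches Adcy1 and Igfbp3. C/EBPα had 3 peaks in each of the 4 lists, all upstream of the start, and all 3 regions were kept. ARID1A was on 2 of them. The region chr11:7192567-7193224, 4.56 kb upstream, was the widest, with peaks of 596 and 613 bp in WT and 539 and 638 bp in KO. The region chr11:7194428-7195039, 2.75 kb upstream, had peaks of 555 and 566 bp in WT and 472 and 420 bp in KO. That second region overlapped H3K4me2 in 3 of 3 WT lists and 1 of 3 KO lists.

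Igfbp2 (chr1:72824480-72852474, plus strand) encodes a binding protein abundant in plasma. Its window of 78.0 kb includes Igfbp5. C/EBPα had 3 and 4 peaks in the WT lists and 5 and 4 in the KO lists, and there was no ARID1A peak. The gained region chr1:72809327-72810288, 14.2 kb upstream of the start, was a wide one. Its KO peaks of 925 and 955 bp ranked at the 96.8th and 97.7th percentile of width, the nearest WT peaks were 16.7 and 16.6 kb away, and H3K4me2 overlapped it in all 6 lists. The widest kept region, chr1:72871774-72872433, lay in the flank, 19.3 kb beyond the downstream end of Igfbp2. Its peaks were 450 and 570 bp wide in WT and 604 and 581 bp in KO. Whether it belongs to Igfbp2 or to Igfbp5 was not tested.

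Igfbp4 (chr11:99040005-99052655, plus strand) encodes a binding protein that blocks IGF action in tissues. Its window of 62.7 kb includes Top2a and Tns4. C/EBPα had 3 and 4 peaks in the WT lists and 5 and 5 in the KO lists. The gained region chr11:99047061-99047393 lay inside the gene and was narrow, with KO peaks of 307 and 272 bp at the 11.9th and 6.28th percentile of width. It overlapped H3K4me2 in all 6 lists. ARID1A was on the kept region chr11:99044281-99044664, also inside the gene, and on a mixed region in the flank. The widest kept region was chr11:99063703-99064186, with peaks of 367 and 317 bp in WT and 433 and 386 bp in KO.

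The 20 mixed regions included patterns that followed single libraries or replicate numbers. WT replicate 1 alone lacked a peak at 6 of them (30.0%, beside 13.8% of all mixed regions), and 5 were present in both replicates numbered 2 and in neither numbered 1 (25%, beside 8.69%). WT replicate 2 alone had a peak at 4 (20%, beside 33.2%). The Ghr window held 7 of the 20 and the Igf1 window 5.

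Width was the available measure of peak strength within a C/EBPα list, since these lists carry no score. Width was ranked within each list, and a kept region was called wider or narrower when both KO percentiles were above or below both WT percentiles. Of the 38 kept regions 8 were wider in both KO lists (21.1%, interval 9.55 to 37.3), beside 14.7% of 11664 kept regions in the genome. A further 7 were narrower (18.4%, interval 7.74 to 34.3), beside 27.8%. Both intervals held their genome value. The 8 wider regions were 3 at Igf1, 2 at Stat5b and 1 each at Igfbp4, Igfals and Ghr. The 7 narrower regions were 1 each at Igf1 and Igf2, 2 at Igfbp1 and 3 at Ghr. These calls are by rank, and widths in bp can differ from them. At Igfbp1, chr11:7192567-7193224 had peaks of 596 and 613 bp in WT and 539 and 638 bp in KO. At Ghr, chr15:3455517-3455965 had 448 and 418 bp in WT and 444 and 415 bp in KO. The Igf2 region was narrower in bp too, with 1006 and 1024 bp in WT and 371 and 376 bp in KO.

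**Figure D4:**
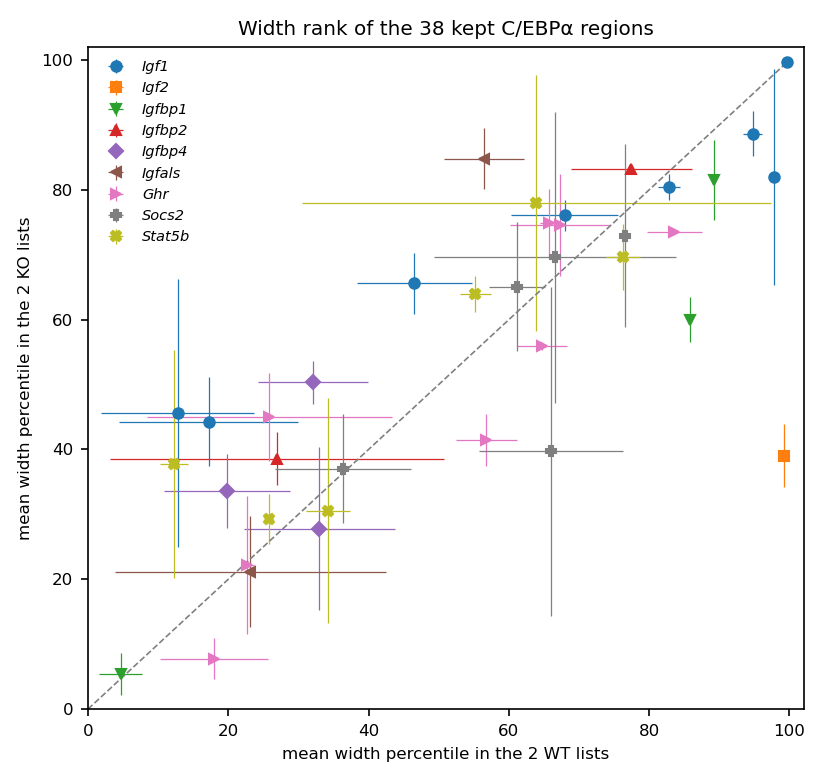
Mean width percentile of each of the 38 kept C/EBPα regions in the 2 WT lists (x axis) and the 2 KO lists (y axis), with bars from the lower to the higher replicate and the dashed line marking equal ranks. The Igf2 region stands farthest below the line, at 99.3 and 99.1 in WT against 34.2 and 43.9 in KO, and the widest Igf1 region stays at the top in both.

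ARID1A was mapped in 1 library, so its peaks have no replicate check. It had 24 peaks in 6 of the 9 windows: Ghr 9, Igf1 5, Socs2 3, Stat5b 3, Igfbp1 2 and Igfbp4 2. Of all protein-coding windows 20.2% held an ARID1A peak, a share that is not corrected for window length. In length, the windows of Ghr, Igf1, Stat5b and Socs2 ranked at the 96.9th, 85.4th, 85.3rd and 68.3rd percentile. Those of Igfbp4 and Igfbp1 ranked at the 42.0th and 22.2nd. The part of length in this contrast was not tested. The windows of Igf2, Igfbp2 and Igfals held none. ARID1A lay on a kept C/EBPα region in 15 of the 24 cases (62.5%, interval 40.6 to 81.2), beside 63.7% of all 5726 ARID1A peaks, and on any C/EBPα region in 21 (87.5%, interval 67.6 to 97.3), beside 82.9%.

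Read from the C/EBPα side, 15 of 38 kept regions carried an ARID1A peak (39.5%, interval 24.0 to 56.6), beside 30.9% of kept regions in the genome. Of the 26 regions that were lost, gained or mixed, 6 carried one (23.1%, interval 8.97 to 43.6), beside 7.03%, and all 6 were mixed. None of the 3 lost and none of the 3 gained regions overlapped an ARID1A peak, beside the 7.03% over lost, gained and mixed regions of the genome together. With 3 regions in each class this does not show a lack of ARID1A. Of the 15 kept regions with ARID1A, 3 overlapped no H3K4me2 peak in any WT list (20%, interval 4.33 to 48.1), beside 3.70% in the genome. These were the pair at Igf1, which lay close to WT peaks of the mark, and the region inside Socs2 given above.

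The second comparison asks how much of each window lay inside H3K4me2 peaks. Values are the percent of the window covered, in WT replicates 1, 2 and 3 and then KO replicates 1, 2 and 3. The Ghr window was covered by 5.91%, 15.7% and 9.69% in WT and 2.28%, 9.62% and 11.9% in KO. The Stat5b window was covered by 19.8%, 28.7% and 18.0% in WT and 11.4%, 25.8% and 19.6% in KO. The Socs2 window was covered by 8.93%, 18.6% and 9.95% in WT and 6.08%, 21.4% and 8.07% in KO. In all 3 windows the WT and KO values interleaved, with KO replicate 1 the lowest library of the 6.

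Both growth factor genes were covered to different extents. The Igf1 window was covered by 11.7%, 34.4% and 17.1% in WT and 6.02%, 22.5% and 17.2% in KO. The Igf2 window was covered by 0% in all 3 WT lists and by 0%, 1.77% and 1.60% in KO. The latter came from 1 peak in KO replicate 2 and 4 peaks in KO replicate 3, the list with the most and narrowest peaks.

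Among the carriers of IGF, the Igfals window was covered by 30.1%, 42.8% and 25.6% in WT and 14.4%, 42.3% and 25.2% in KO. The Igfbp1 window was covered by 15.3%, 19.7% and 10.5% in WT and 4.97%, 16.1% and 9.26% in KO. Igfals and Igfbp1 were lower in KO within each of the 3 replicate numbers, as were 9.13% of all windows, although the groups overlapped at both. The Igfbp2 window was covered by 13.8%, 19.4% and 13.3% in WT and 8.19%, 25.6% and 13.3% in KO. The Igfbp4 window was covered by 19.6%, 27.4% and 22.8% in WT and 14.5%, 29.7% and 18.9% in KO.

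No member's groups stood apart, beside 0.682% of 20820 windows with every KO value below every WT value and 0.0480% with every KO value above. Exact two-sided permutation tests gave the members p between 0.3 and 0.9, where 3 against 3 libraries cannot go below 0.1, and the adjusted p was 1 for each. No window of the genome passed 0.05, adjusted or unadjusted. The median difference (KO minus WT) was -2.50 percentage points over the 9 members, beside 0.273 over all windows. Within replicate numbers 1, 2 and 3 the medians were -5.57, -0.52 and 0.06 over the members. Over all windows they were -1.05, 0 and 1.92. Members and all windows were not matched for their cover in WT, so these medians do not show a larger loss at the members.

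Replicate numbers moved with these values. In replicate 1 the KO cover was lower than the WT cover at 8 of 9 members and equal at Igf2, and it was lower at 75.4% of all windows. In replicate 2 it was lower at 5 and higher at 4, with 47.6% of all windows lower, and in replicate 3 it was lower at 4 and higher at 5, with 15.7% of all windows lower. The part of peak number in these differences was not tested.

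**Figure D5:**
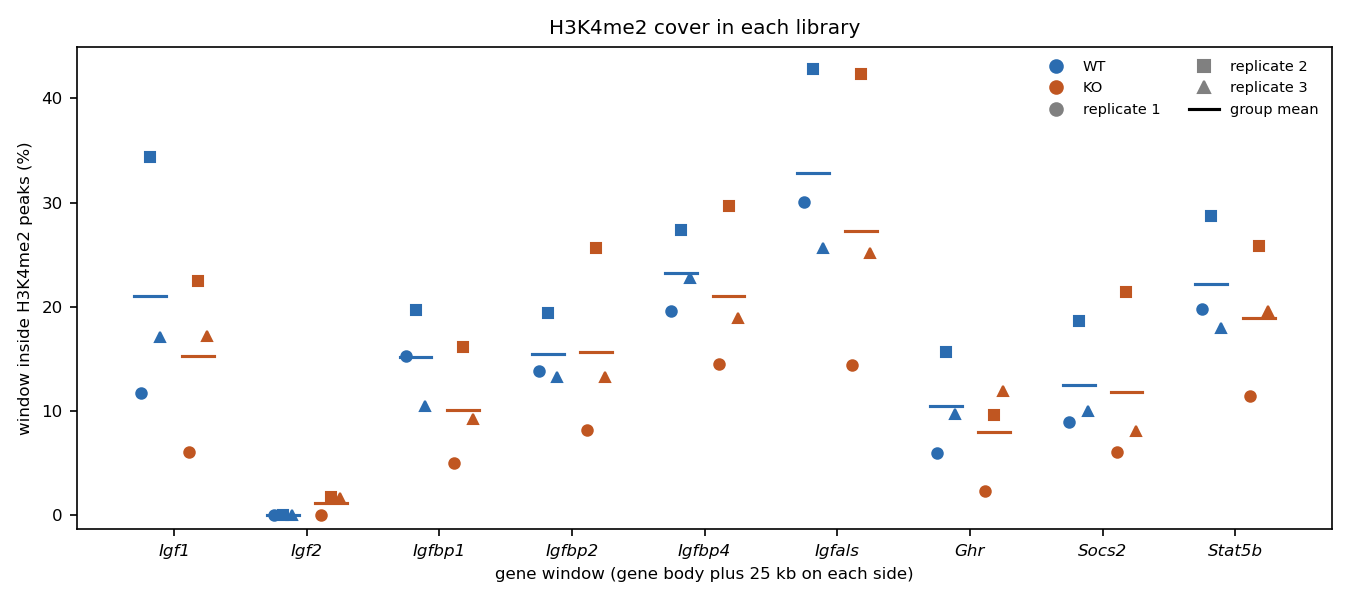
Percent of each window inside H3K4me2 peaks (y axis) in each library, WT in blue and KO in orange, with the marker shape giving the replicate and the bar the group mean. WT and KO points overlap or meet at all 9 genes, Igf2 lies at or near 0%, and the circles of replicate 1 are the lowest KO points at all 9.

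Over the gene bodies alone, 1 member stood apart. The Igfbp1 body was covered by 81.1%, 77.4% and 65.5% in WT and 48.8%, 61.8% and 32.4% in KO. The difference was -27.0 percentage points, from 74.7% ± 8.17 (SD, n = 3) to 47.7% ± 14.7 (SD, n = 3), with an exact two-sided permutation p of 0.1 and an adjusted p of 1 over all gene bodies. Every KO value was below every WT value at this gene, as at 1.58% of 17635 gene bodies, and none of the 9 was higher in every KO list, beside 0.255%. The body of Igfals was nearly filled, with 83.1%, 100% and 80.3% in WT and 49.5%, 100% and 86.1% in KO, where groups overlapped.

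The peak over the first listed start was compared by width. At Igfbp4 it was 9553, 10452 and 9890 bp wide in WT and 2142, 12108 and 2529 bp in KO, so the peak was shorter in KO replicates 1 and 3 than in any WT list and wider in KO replicate 2. In KO replicates 1 and 3 the gene body held 3 separate peaks and was covered by 63.0% and 54.7%, against 75.3% to 88.5% in WT, so the cover fell short by less than the width of that peak. At Igf1 it was 8243, 10575 and 8655 bp in WT and 3660, 13283 and 6250 bp in KO. At Igfbp1 it was 7831, 4801 and 3640 bp in WT and 2722, 4183 and 2601 bp in KO.

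KO replicate 2 was above at least 1 WT library at each of these 3 starts, and exact permutation p values were 0.4, 0.8 and 0.2 (n = 3 against 3). Groups overlapped at all 8 members with a listed start, beside 1.84% of 14189 starts that were narrower in every KO list and 0.0987% that were wider. Igf2 had no H3K4me2 peak at its first start in any list. At Stat5b the widths were nearly even, 3791, 5697 and 4047 bp in WT and 3499, 5918 and 3723 bp in KO.

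The windows were also cut into 1-kb bins, and a bin counted as marked where 500 bp or more of it lay in peaks of a list. Of the 971 bins in the 9 windows, 42 were marked in all 6 lists, and none of these was at Igf2. Of 78 bins marked in all 3 WT lists, 1 was marked in no KO list (1.28%, interval 0.0325 to 6.94), beside 2.01% over the genome. It was chr17:24897001-24898000, 15.0 kb beyond the downstream end of Igfals. This bin is the edge of a longer peak: 920, 920 and 723 bp of it were covered in WT and 1, 361 and 284 bp in KO, so all 6 lists reached into it and the KO lists stayed under the 500 bp minimum. Of 43 bins marked in all 3 KO lists 0 were gained, which allows a share of up to 8.22%, beside 0.175%. Leaving out KO replicate 2 raised the lost bins to 16 and leaving out WT replicate 1 raised them to 8, while leaving out KO replicate 1 or KO replicate 3 kept them at 1. Each omission relaxes the rule by 1 list, so the count depended on which library was left out. WT replicates 2 and 3 gave 2 and 3 when left out, and leaving out KO replicate 1 gave 2 gained bins.

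Other genes of the same pathway were listed by function, 31 in all, and all matched the annotation. Of these, 21 had a kept C/EBPα region in their window (67.7%, beside 38.5% of all protein-coding windows) and 11 had an ARID1A peak (35.5%, beside 20.2%). These shares are not corrected for window length. At least 1 lost region was found at 7: Igf2bp3 and Socs3 with 2 each, and Igf1r, Insr, Onecut1, Grb10 and Prlr with 1 each. That is 30.4% of the 23 windows with a region to lose, near the 27.1% over all such windows. At least 1 gained region was found at 3: Insr, Irs2 and Igfbp6. That is 13.6% of 22, near the 13.4% over all such windows. The windows of 4 of the 31 overlap a member's window, among them Igfbp3 beside Igfbp1 and Stat5a beside Stat5b, and these share peaks with the members.

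Socs3, a cytokine-induced relative of Socs2, had 4 and 5 C/EBPα peaks in WT and 2 and 2 in KO. Igf1r, the receptor for IGF1, had 1 and 1 in WT and 0 and 0 in KO. Irs2, which passes on the insulin signal, had 4 and 4 in WT and 5 and 5 in KO. Of the 27 with a C/EBPα peak, 4 had fewer in every KO list (14.8%, near the 14.9% over all windows) and 2 had more (7.41%, near 6.32%). Of the 31, 0 stood apart in H3K4me2 cover, and 0 passed an adjusted p of 0.05 in the exact permutation tests. By 1-kb bins, Pappa2, Pappa, Igf2bp3 and Grb10 each had 1 lost H3K4me2 bin in their window. Over the genome 2.01% of bins marked in all 3 WT lists were lost, and the number of such bins at these genes is not given here. For RNA or protein levels of any of these genes, no measurement was used here.

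The gene most like each member was found from the distance between the log2(1 + peaks in the window) values over the 11 lists, where 0 is identical. Igfbp4 had the closest match, Rdx, at a distance of 0.463, followed by Igfbp2 with Ptpa at 0.588 and Igf1 with Prr16 at 0.678. Then came Socs2 with Cisd1 at 0.721, Igfals with Letm2 at 0.756, Stat5b with Scarb1 at 0.793 and Igfbp1 with Spata24 at 0.829. Igf2 and Ghr were the least matched, with Krt72 at 1.06 and Ugt1a9 at 1.18. Krt72 had 2 C/EBPα peaks in each of the 4 lists, where Igf2 had 3, 3, 1 and 1.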

How the data were processed

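The 11 peak lists were read as deposited, as positions in mm10. The submitters' processing notes name HOMER, Picard, Bowtie2 2.2.3 and MACS2 2.0.10.20131216, with no roles. The V5 and C/EBPα lists were deposited without peak strength, and their numbered peak names have gaps: 40.0% to 40.1% of the highest number is present, and the sources used here do not say how these were picked. The H3K4me2 lists are complete by number. The deposited H3K4me2 columns hold the authors' score, fold ratio, −log10 p and −log10 q, of which the −log10 q was used to rank peaks within a list and for 2 alternatives.

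Regions, counts, cover and bins were computed with Python 3.11.15, numpy 2.4.6 and pandas 2.3.3, intervals with SciPy 1.17.1 and plots with matplotlib 3.10.9. The functions were tested on simulated data. Tests were exact two-sided permutations over libraries, adjusted over all windows with a peak. Overlap meant at least 1 bp. Groups came from the labels, which give C/EBPα and H3K4me2 libraries different kits and sequencers. All 9 genes, every lost or gained region, every kept region with ARID1A and the widest kept region of each gene are named. Of the other pathway genes, those with a lost or gained C/EBPα region or H3K4me2 bin are. The genes and lists were chosen with earlier results of these data known.

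For H3K4me2, libraries with the same replicate number deviated together (correlations of 0.701, 0.847 and 0.425 over windows), so the numbers were taken as pairs, by this correlation and not by a label. The pairing is not clean: WT replicate 3 correlated more with KO replicate 1 (0.694) than with KO replicate 3, and WT replicate 1 with KO replicate 3 gave 0.33. Coordinates count from 1.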

Additional observations from a re-analysis of the deposited data

How the results depend on the processing

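The 23 alternatives were each run only on the results they bear on. For the member differences they gave unadjusted exact permutation p values, and none of these could pass 0.05 with so few libraries. With the replicate block, same-numbered libraries were compared by exact sign-flip permutation, which cannot go below p = 0.5 for C/EBPα (Igf2, Igfbp4) or 0.25 for H3K4me2 (Igfbp1, Igfals). Whether groups overlap is read from the values alone, so the block could not change those calls. The C/EBPα libraries share only a number (correlation 0.112 over 2 pairs). Lost regions numbered 3 in the report, 1 with 10 kb flanks, 0 in gene bodies alone, and 4 to 7 with 1 library left out. Gained regions numbered 3 in the report, 1 in gene bodies alone, 5 with the same number of widest peaks from each list, and 3 to 9 with 1 library left out. Lost H3K4me2 bins numbered 1 in the report, 0 with 10 kb flanks, 2 with 50 kb flanks, 0 in gene bodies alone, 0 when a whole bin had to be covered, and 1 to 16 with 1 library left out. Gained bins numbered 0 in the report and 0 to 2 with 1 library left out. ARID1A peaks numbered 24 in the report and 10 at or above the median width, where fewer peaks are counted by construction. The share on kept regions moved between 41.7% and 75.0% around 62.5%. Shorter flanks can only lower the counts of regions, bins and ARID1A peaks, and leaving out a library relaxes the rules for lost and gained. The reasons for the sizes of these changes were not tested. The cause was not tested for the differences (KO minus WT) that changed sign. Igf1 C/EBPα peaks went from -1 to 2 with wide peaks and 2 with equal list lengths, and ranged from -2.5 to 0.5 with 1 library left out, and Ghr from -1.5 to 4.5 around 1.5. H3K4me2 cover in percentage points went from 0.241 at Igfbp2 to -0.144 with 50 kb flanks, -2.55 with the stricter −log10 q, -3.25 with equal list lengths and -4.71 to 4 with 1 library left out, and at Socs2 from -0.641 to 0.0125 with 50 kb flanks and -5.40 to 2.40. With 1 library left out it also spanned 0 at Igf1 (-10.5 to 0.860), Igfbp4 (-6.54 to 1.06), Igfals (-13.0 to 0.910), Ghr (-4.76 to 0.333) and Stat5b (-6.69 to 0.534). Igf2 stayed at -2 C/EBPα peaks with each library left out but was 0 with 10 kb flanks and in the gene body alone. Igfbp4 went from 1.5 to 0.5 with wide peaks. Igfbp1 H3K4me2 stayed between -8.07 and -2.50 with each library left out. Read depth is unknown, so peaks missing from shorter lists may have been missed.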
